A study of Mus musculus with 32 samples.

Results

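Open chromatin in lung alveolar macrophages (AM) of DBA2J mice was described here through 5372 ATAC-seq peaks, out of 43690 in the DBA2J AM peak list (12.3%) and out of 311509 in the 8 lists of the series. Peaks are 200 bases wide in 99.9914% to 100% of each list, and a peak was a member when it overlapped no peak of the other 7 lists by 1 base or more. Those lists are C57BL6J AM and, for both strains, patrolling monocytes (pMo), inflammatory monocytes (iMo) and interstitial macrophages (IM). Members were chosen by the presence of a peak, so presence and score are given as a description, without a test. RNA was not used in the choice and was tested.

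RNA-seq and ATAC-seq were made from these 4 cell types sorted from the lungs of mice of the strains C57BL6/J and DBA/2J, written C57BL6J and DBA2J in the sample titles. All mice were labelled as receiving no treatment. Each cell type and strain had 2 RNA libraries, 16 in all, and 1 ATAC peak list made from 2 libraries. Cells were sorted with antibodies to the leukocyte marker CD45, the myeloid markers CD11b, CD11c, CD64 and F4/80, and SiglecF, Ly6g and Ly6c. The labels used here do not give age, sex or the number of animals per library, and call iMo and pMo macrophages in one field and monocytes in another. Whether replicates stem from different animals is not stated in the labels, and p-values therefore cover the spread between libraries and nothing wider.

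ATAC-seq marks DNA that a transposase can reach, such as promoters and distal regulatory elements. Alveolar macrophages live on the air side of the lung, clear surfactant lipid, inhaled particles and microbes, and depend on GM-CSF and TGF-beta signalling and on the nuclear receptor PPAR-gamma. In macrophages PU.1 and C/EBP factors open a shared set of elements, and AP-1, interferon and nuclear receptor signals add elements that differ between tissues and states. A sequence difference between mouse strains can create or remove such an element.

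The sequences below come from RefSeq for build GRCm38.p6, whose coordinates are those of mm10. They are the C57BL6J reference, and the DBA2J alleles were not analysed here. Windows of 300 bases, 250 before and 50 after a start, were available for 32851 transcription starts and 72.6% of the genes of the expression table. Of the 5372 members 85 overlapped 87 such windows. The stretches are the part of a member that lies upstream of the start, written on the strand of the gene, and capitals mark matches to the motifs named further on. Npl and Rnase2a are shown because their RNA was higher in DBA2J than in C57BL6J AM, Egr2, F7 and Il1rl2 because their RNA was higher in AM than in the other DBA2J cells, and Mgst2 and Oas1a because they hold an AP-1 and an interferon response match. They were chosen after their values were seen.
Rnase2a, chr14:51256166-51256362, strand minus: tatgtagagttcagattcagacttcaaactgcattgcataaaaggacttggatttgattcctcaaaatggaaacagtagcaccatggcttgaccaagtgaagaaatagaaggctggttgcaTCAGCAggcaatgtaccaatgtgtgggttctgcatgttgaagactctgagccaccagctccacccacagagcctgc
Npl, chr1:153549894-153549964, strand minus: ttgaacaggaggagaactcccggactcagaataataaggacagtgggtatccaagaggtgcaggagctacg
Egr2, chr10:67535306-67535498, strand plus: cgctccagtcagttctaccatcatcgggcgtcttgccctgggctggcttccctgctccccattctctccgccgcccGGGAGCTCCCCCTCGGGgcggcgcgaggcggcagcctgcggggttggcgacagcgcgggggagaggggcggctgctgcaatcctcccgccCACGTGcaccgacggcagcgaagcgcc
F7, chr8:13025937-13026033, strand plus: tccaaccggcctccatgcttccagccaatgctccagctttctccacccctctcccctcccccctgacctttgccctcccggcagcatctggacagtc
Il1rl2, chr1:40324423-40324588, strand plus: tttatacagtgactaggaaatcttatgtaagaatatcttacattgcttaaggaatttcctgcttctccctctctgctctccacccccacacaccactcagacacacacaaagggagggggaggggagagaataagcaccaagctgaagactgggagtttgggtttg
Mgst2, chr3:51661040-51661178, strand plus: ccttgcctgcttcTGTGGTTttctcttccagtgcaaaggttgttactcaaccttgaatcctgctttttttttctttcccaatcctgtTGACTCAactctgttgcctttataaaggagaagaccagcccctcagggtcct
Oas1a, chr5:120907526-120907664, strand minus: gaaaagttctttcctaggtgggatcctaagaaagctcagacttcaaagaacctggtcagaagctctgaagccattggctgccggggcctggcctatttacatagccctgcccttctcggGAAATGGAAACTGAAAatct

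Among 12 motifs searched on both strands in the whole windows, AP-1 (TGANTCA) stood in 14 of the 87 windows under a member (16.1%). Both windows of Dtnb, which overlap and lie under 1 member, are among them. A match may lie in the part of a window outside the member, as at Il1a. It stood in 7.81% of all windows and in 5.04% of the 7426 windows under a DBA2J AM peak that C57BL6J AM shares. The interferon response motif stood in 8.05% of the member windows, against 3.44% of all and 2.75% of the shared ones. C/EBP (TTGCNNCAA) stood in 4.60%, against 2.08% and 1.56%, and ETS (AGGAAGT, part of PU.1 sites) in 13.8%, against 9.35% and 10.5%. The E-box (CACGTG) stood in 6.90%, against 7.15% and 10.5%, and EGR (GCGTGGG) in 8.05%, against 5.04% and 8.67%. MAF (TGCTGA) stood in 16.1%, against 19.5% and 14.6%, RUNX (TGTGGTT) in 5.75%, against 5.27% and 3.62%, and NF-kB (GGGANNTCC) in 6.90%, against 4.30% and 5.93%. The longer PU.1 motif (GAGGAAGT), which contains the ETS letters, stood in 4.60%, against 3.20% and 4.01%. The CTCF core stood in 8.05%, against 6.95% and 10.1%. The PPAR and RXR direct repeat stood in none of the 87, against 13 of all 32851 windows and 3 of the 7426 shared ones. A motif this rare cannot be compared over 87 windows. Median GC content was 52.0% under members, 52.7% in all windows and 62.0% under the shared peaks. The matches are descriptions of reference letters in few windows, and base composition differs between the groups compared.

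Members were mostly weak peaks of their list. The deposited score of a member, on a scale that the sources used here do not give, ran from 25.8 to 385.1 with a median of 34.0, and the whole list had a median of 54.0. Members made up 31.5% of the lowest 10% of the list by score and 0.366% of the highest 10%, and 609 of them (11.3%) lay above its median. Peaks shared with C57BL6J AM alone had a median score of 52.8 and numbered 3976 (9.10% of the list). Peaks present in all 8 lists had a median of 92.8 and numbered 12487 (28.6%).

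**Figure D1:**
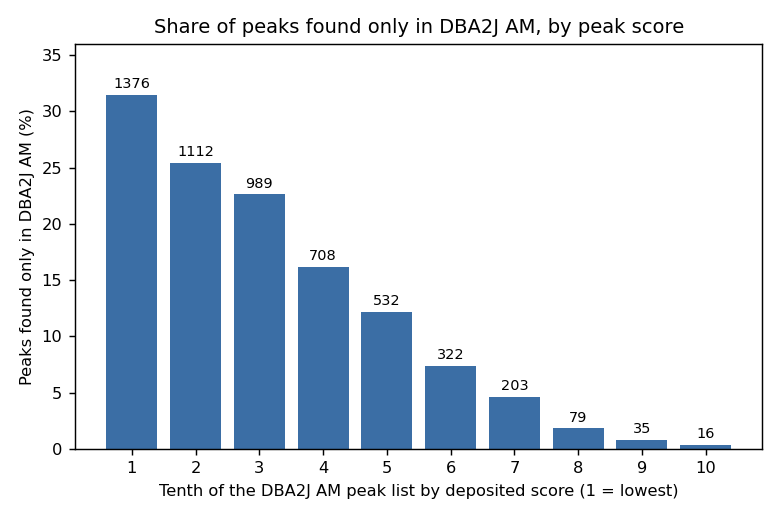
Share of peaks found only in DBA2J AM (y axis, percent) in each of 10 equal classes of the DBA2J AM list ordered by the deposited score (x axis), with the number of members above each bar. The share falls from 31.5% in the lowest class to 0.366% in the highest.

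The 8 lists differ in length and in their lowest score, so absence from a list is not a measure of closed chromatin. Their lengths ran from 24429 peaks in DBA2J IM to 70013 in C57BL6J IM, and their lowest scores include 25.8 in DBA2J AM, 21.6 in C57BL6J AM and 7.41 in C57BL6J IM. The same rule gave 1384 peaks found only in C57BL6J AM (4.24% of 32668), 20048 only in C57BL6J IM (28.6%) and 178 only in DBA2J IM (0.729%). Just inside the rule, 16 members lay within 10 bases of a peak of another list, with a median score of 41.1. Just outside it, 21 peaks overlapped another list by only 1 to 10 bases, with a median score of 44.6. At the other extreme, 1479 members (27.5%) had no peak of another list within 10 kb, and the median gap to the closest C57BL6J AM peak was 7303 bases.

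Most members were far from transcription starts. A start lay within 1 kb of 283 members (5.27%), between 1 and 10 kb for 1405 (26.2%), between 10 and 100 kb for 3090 (57.5%) and beyond 100 kb for 594 (11.1%). The median distance was 22156 bases, and 2778 members (51.7%) lay inside the span of a gene. Peaks shared by the AM of both strains alone had a like distribution, with 4.95% within 1 kb and a median of 20890 bases. Of the peaks present in all 8 lists 53.7% lay within 1 kb, with a median of 594 bases. These shares describe lists and carry no replicate error.

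**Figure D2:**
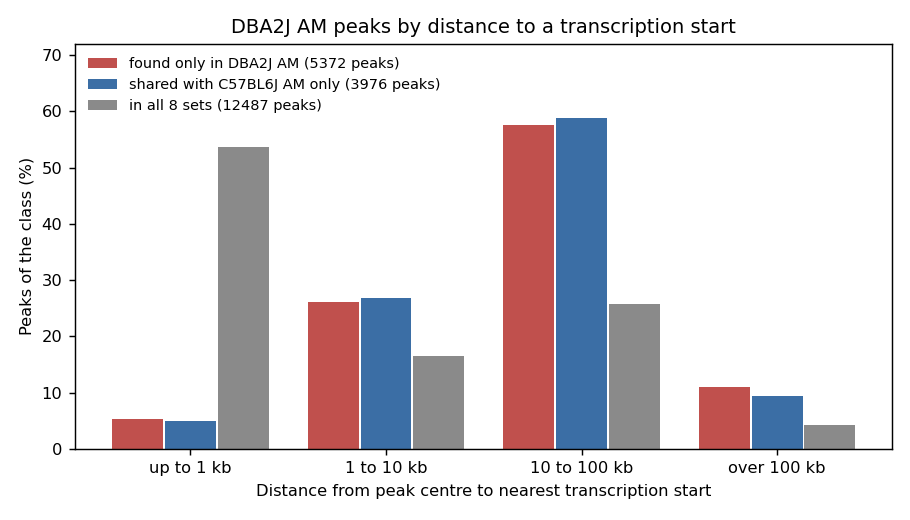
Distance from peak centre to the nearest transcription start (x axis, 4 classes) as the percent of peaks (y axis) for members, peaks shared with C57BL6J AM alone and peaks in all 8 lists. Members and AM-shared peaks lie mostly at 10 to 100 kb (57.5% and 58.9%), and peaks of all lists mostly within 1 kb (53.7%).

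Members were spread over all chromosomes, from 8.42% of the list's peaks on chromosome X to 14.0% on chromosome 12 (chromosome Y held 3 peaks in all). Locally they gathered. The 1 Mb window of chromosome 19 that starts at 55 Mb, with Tcf7l2, a transcription factor of Wnt signalling, held 36 members among 98 peaks. The window of chromosome 5 that starts at 21 Mb, with Gsap (gamma-secretase activating protein), held 24 of 70, and that of chromosome 2 at 166 Mb, with Prex1, an exchange factor for Rac, held 23 of 106. At Anpep, the aminopeptidase N gene, 5 members lay in 22330 bases (chr7:79859053-79881383) with no peak of any other list between them. The best-scored member, 385.1, was at chr4:139422525-139422725 inside Ubr4, a ubiquitin ligase, 41966 bases from its start. The next, 200.8, was at chr5:138775186-138775386 inside Fam20c, a kinase of the secretory pathway, 20205 bases from its start.

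Within 100 kb, 4778 members had a nearest gene, and these were 3287 genes. One member was nearest to 2331 of them, 2 members to 635, 3 to 205 and 4 or more to 116, with the most, 17, at Tcf7l2. Of the 3287 genes 2220 (67.5%) passed the RNA filter, an average of 1 TPM or more across the 16 libraries, and 1067 did not. A gene that passed only through DBA2J AM had to differ, so the counts below describe the genes that passed. With the filter set on the 12 libraries of IM, iMo and pMo instead, an alternative chosen after seeing the data, 87 of 2192 were called higher in DBA2J AM (3.97%) and 28 lower (1.28%).

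At genes next to a member, RNA was more often called higher than lower in DBA2J AM. A gene was called at an adjusted p under 0.05 in limma, fitted over all 12277 tested genes on log2(TPM + 1). Of the 2220 genes 92 were called higher in DBA2J than in C57BL6J AM (4.14%), against 1.99% of all genes tested. Called lower were 31 (1.40%), against 1.3% of all, and 3.28% of all genes were called in either direction. The median difference was 0.16 log2 units for these genes and 0.09 for all. Leaving out 1 AM library reduced the count of higher genes to 39 (without DBA2J replicate 2), 44 (without C57BL6J replicate 2), 57 (without C57BL6J replicate 1) and 61 (without DBA2J replicate 1), and that of lower genes to between 14 and 16. The share of higher genes was then 1.76% to 2.75%, against 0.896% to 1.24% of all genes.

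The share called higher was larger for genes with more members. It was 3.11% with 1 member (48 of 1541), 5.02% with 2 (22 of 438), 7.80% with 3 (11 of 141) and 11.0% with 4 or more (11 of 100). The share called lower stayed between 1.00% and 2.05%, and the median difference went from 0.12 through 0.20 and 0.29 to 0.32. Genes with more members also had longer spans (medians of 21144 bases with 1 member and 62509 with 4 or more) and more DBA2J AM peaks of any kind (3 and 12). Among genes nearest to DBA2J AM peaks of which none was a member, 1.58% were higher. Among those with 4 or more such peaks (median 5) the share was 3.11%. Among those with 8 or more (median 10), 7 of 283 were higher (2.47%) and 3 lower (1.06%). Their median span was 27140 bases, so this group comes closer in peaks than in span. Next to a peak found only in C57BL6J AM and to no member, 8 genes of 420 were higher (1.90%) and 26 lower (6.19%). When each AM library was left out in turn, 8.0% to 10.0% of the genes with 4 or more members were higher.

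**Figure D3:**
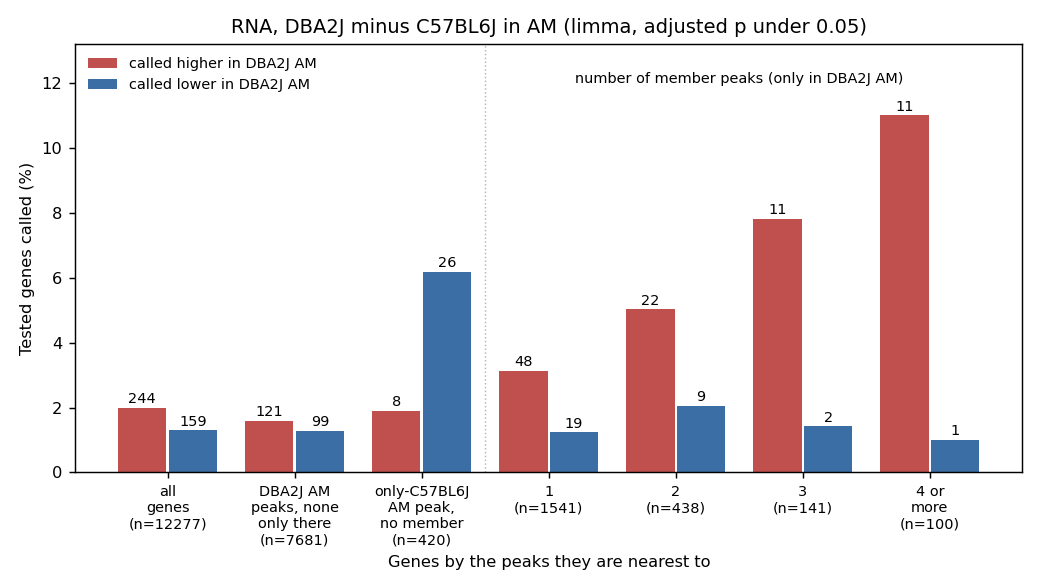
Percent of tested genes called higher (red) or lower (blue) in DBA2J AM than in C57BL6J AM (y axis), for all genes, for genes near other kinds of AM peak and for genes with 1, 2, 3 or 4 and more members (x axis), with the number of called genes above each bar. The red bars rise from 3.11% to 11.0% with the number of members, and the blue bar is the higher one (6.19%) next to peaks found only in C57BL6J AM.

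Levels of other cell types' markers moved with strain in the same libraries. The 5 endothelial markers summed to 9.39 to 13.3 TPM in C57BL6J AM and 38.1 to 84.1 TPM in DBA2J AM, and all 5 were higher in both DBA2J libraries. Cldn5 made up most of that sum, and Pecam1, itself nearest to a member, was called higher by limma (1.49 log2 units, adjusted p = 0.0428). B cell markers summed to 3.57 to 6.47 and 12 to 16.1 TPM, T and NK cell markers to 1.06 to 1.40 and 3.70 to 9.35, and fibroblast markers to 0.202 to 0.44 and 3.68 to 4.03. Epithelial markers were lower in DBA2J AM, at 6.11 to 7.24 against 25.1 to 26.8 TPM, with 5 of 8 lower in both libraries. Neutrophil markers summed to 18.9 to 19.2 against 23.7 to 27.0 TPM, with Csf3r and Cxcr2 lower in both DBA2J libraries and S100a8, Retnlg and Mmp9 higher. Classical monocyte markers summed to 415 to 437 TPM in DBA2J AM against 1123 to 1242 in C57BL6J AM. Most of that sum was Chil3, which is also on the AM marker list (1119 and 1012 TPM in C57BL6J, 311 and 314 TPM in DBA2J). Of the other 6 markers, 5 were higher in both DBA2J libraries, and the sum without Chil3 overlapped (123 and 111 TPM in C57BL6J, 104 and 123 TPM in DBA2J). Patrolling monocyte markers summed to 266 to 293 TPM in DBA2J AM against 202 to 215, IM markers to 187 to 240 against 217 to 376, and dendritic cell markers to 2.16 to 2.20 against 0.886 to 1.12. Of the 15 IM markers, though, 7 were higher in both DBA2J AM libraries and 4 were lower in both. The 4 eosinophil markers summed to 0.034 to 0.08 TPM in DBA2J AM against 0.014 to 0.022 in C57BL6J AM. In AM of each strain 3 of them were at 0 in both libraries, and 1 was higher in both DBA2J AM libraries. The 25 AM markers summed to 7172 to 7564 TPM in C57BL6J AM and 7253 to 7931 in DBA2J AM. Of these, 11 were higher in both DBA2J libraries and 10 were lower in both. The part of these markers in the gene differences was not tested, and in bulk samples fewer cells of a type and less RNA per cell cannot be told apart.

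The 92 genes called higher in DBA2J AM ranged from genes near zero in C57BL6J AM to abundant ones. All 92 had non-overlapping AM libraries, as had 42.4% of the 2220 genes and 35.2% of all genes tested with DBA2J higher. Their median difference was 1.55 log2 units (0.66 to 4.54). In C57BL6J AM 41 of the 92 averaged under 1 TPM, and for 44 there were 2 or more members. Of all 2220 genes 438 had 2 members, 141 had 3 and 100 had 4 or more. A member lay within 1 kb of the start for 9 of the 92, and the median distance of their closest member was 7998 bases.

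Plekha6, which encodes a protein with a pleckstrin homology domain, had 4 members, all upstream of its start between 8248 and 41522 bases. The best-scored, 130.3, was at chr1:133213941-133214141. Its level was 1.55 and 1.14 TPM in the C57BL6J AM libraries and 53.4 and 53.3 TPM in the DBA2J AM libraries. Both DBA2J libraries lay far above both C57BL6J libraries, by 4.54 ± 0.21 log2 units (SE, n = 2 per group, limma adjusted p = 5.86e-07). In IM the levels were 1.28 and 1.03 against 2.78 and 4.40 TPM, called higher in DBA2J (1.07, limma adjusted p = 0.00997). In pMo the levels were 3.44 and 3.42 against 1.28 and 1.62 TPM and did not pass (-0.86, adjusted p = 0.0515).

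Bcam, a laminin-binding adhesion molecule, had 1 member 2344 bases into the gene, at chr7:19768088-19768288. It stood at 4.33 and 7.44 TPM in C57BL6J AM and at 85.3 and 86.0 TPM in DBA2J AM, a difference of 3.69 ± 0.33 (SE, limma adjusted p = 6.86e-05). The orphan receptor gene Gprc5b, with 3 members of which the best-scored (115.1) was at chr7:118931624-118931824, was at 0.019 and 0.023 TPM in C57BL6J AM and at 22.5 and 19.5 TPM in DBA2J AM. The groups did not overlap in either gene, and Gprc5b differed by 4.43 ± 0.39 (SE, limma adjusted p = 5.41e-05). Slc22a4, a transporter of organic cations and ergothioneine, had a member 760 bases inside its start and another at 9002 bases. It was at 0.058 and 0.11 TPM in C57BL6J AM and at 11.3 and 13.4 TPM in DBA2J AM (3.62 ± 0.22, SE, limma adjusted p = 3.08e-06). Map6, a microtubule-stabilising protein with 3 members in its span, went from 0.735 and 0.873 TPM to 18.8 and 18.3 TPM (3.44 ± 0.26, SE, limma adjusted p = 1.34e-05). All of these genes stood higher in both DBA2J AM libraries than in either C57BL6J AM library.

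Spp1, which encodes the secreted phosphoprotein osteopontin, had 4 members upstream of its start between 7633 and 28151 bases. It was at 128 and 120 TPM in C57BL6J AM and at 816 and 901 TPM in DBA2J AM (2.78 ± 0.29, SE, limma adjusted p = 1.80e-04). Spp1 was the member of the AM marker list that was called higher, and in IM it stood at 86.5 and 95.0 against 70.7 and 107 TPM, with overlapping libraries. Fam20c, next to the second best-scored member, was at 0.244 and 0.066 TPM in C57BL6J AM and at 3.77 and 3.46 TPM in DBA2J AM (2.00 ± 0.33, SE, limma adjusted p = 0.00511). Its adjusted p was 0.0653 without C57BL6J replicate 2 and 0.0516 without DBA2J replicate 1. Ubr4, next to the best-scored member, did not pass, at 23.2 and 22.4 against 26.6 and 27.8 TPM.

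Npl, the N-acetylneuraminate lyase of sialic acid breakdown whose promoter stretch is printed above, and Anpep were chosen after their values were seen. Npl had 4 members and went from 0.37 and 0.358 TPM in C57BL6J AM to 8.05 and 9.38 TPM in DBA2J AM (2.83 ± 0.26, SE, limma adjusted p = 8.85e-05). Anpep, with its run of 5 members, went from 0.802 and 0.573 TPM to 10.7 and 9.34 TPM (2.71 ± 0.24, SE, limma adjusted p = 6.05e-05). Both genes were higher in both DBA2J AM libraries. Rnase2a, an eosinophil-associated ribonuclease of a family of near-identical genes and so uncertain in its counting, was at 0.509 and 0.307 TPM and then 22.8 and 19.6 TPM. Its member covers the printed promoter stretch, and its difference of 3.98 ± 0.96 (SE, limma adjusted p = 0.0493) lost its call when any AM library was left out (adjusted p 0.235 to 0.285).

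**Figure D4:**
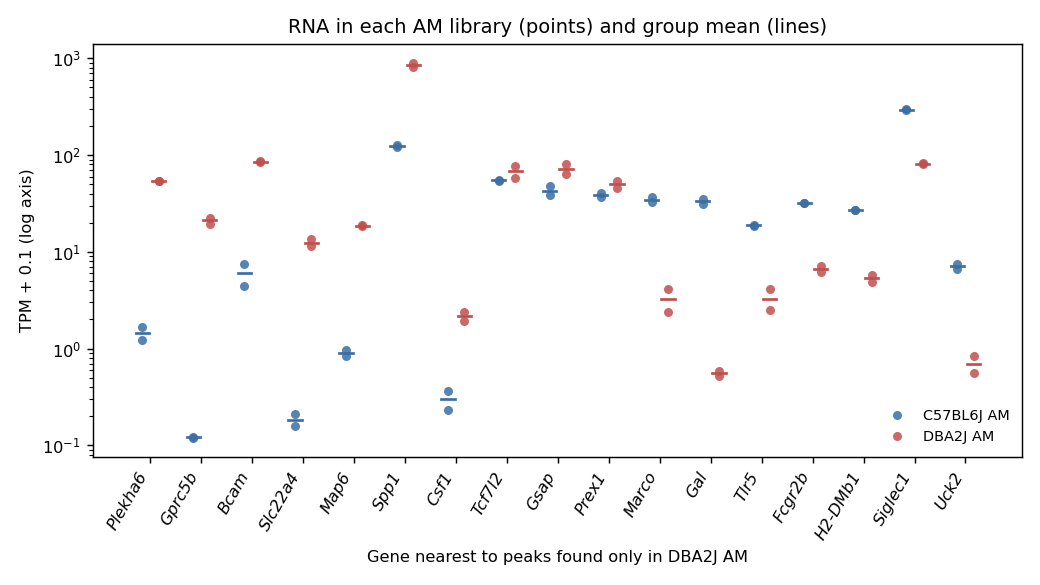
TPM plus 0.1 on a log axis (y axis) in each AM library for genes nearest to members (x axis), blue for C57BL6J and red for DBA2J, with a line at each group mean. Plekha6 to Csf1 stand higher in DBA2J, Tcf7l2, Gsap and Prex1 were not called, and Marco to Uck2 stand lower in DBA2J.

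The 31 genes called lower in DBA2J AM were mostly well expressed in C57BL6J AM. Their median difference was -1.45, 27 of them averaged over 10 TPM in C57BL6J AM, and 12 had 2 or more members. A call of lower needs a level in C57BL6J AM to fall from, so this level is partly built in. The like share for all genes called lower is not given here. Member counts over the 2220 genes are given above. All 31 had non-overlapping AM libraries, as had 16.2% of the 2220 genes and 17.9% of all genes tested with DBA2J lower. The neuropeptide gene Gal, with 2 members, was at 34.8 and 31.5 TPM in C57BL6J AM and at 0.485 and 0.424 TPM in DBA2J AM (-4.55 ± 0.42, SE, limma adjusted p = 7.61e-05). Both DBA2J libraries were far below both C57BL6J libraries. The scavenger receptor gene Marco, with 2 members over 50 kb from its start among 9 DBA2J AM peaks nearest to it, was at 32.4 and 36.9 TPM and at 4.03 and 2.29 TPM. Its difference of -3.13 ± 0.67 (SE, limma adjusted p = 0.0282) lost its call when any AM library was left out (adjusted p 0.0922 to 0.251). Tlr5, the receptor of bacterial flagellin, was at 19.0 and 18.5 TPM in C57BL6J AM and at 2.39 and 3.98 TPM in DBA2J AM (-2.26 ± 0.23, SE, limma adjusted p = 1.94e-04). Only 1 of the 16 DBA2J AM peaks nearest to Tlr5 was a member.

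H2-DMb1, which helps load peptides on MHC class II, was at 27.3 and 27.0 TPM in C57BL6J AM and at 5.70 and 4.83 TPM in DBA2J AM (-2.17 ± 0.14, SE, limma adjusted p = 6.73e-06). The inhibitory IgG receptor gene Fcgr2b was at 31.8 and 32.1 TPM and at 7.07 and 6.09 TPM (-2.12 ± 0.15, SE, limma adjusted p = 8.26e-06). Siglec1, the sialic acid receptor sialoadhesin, was at 292 and 300 TPM and at 82.2 and 79.9 TPM (-1.86 ± 0.23, SE, limma adjusted p = 8.77e-04). In each of these the DBA2J libraries were the lower ones, and each had 1 member. Uck2, a kinase of pyrimidine salvage, was lower with 4 members in its span, one of them scored 160.9 at chr1:167249298-167249498. Its level was 6.50 and 7.45 TPM in C57BL6J AM and 0.456 and 0.731 TPM in DBA2J AM (-2.33 ± 0.28, SE, limma adjusted p = 6.72e-04). Tgfbi, a matrix protein induced by TGF-beta, fell by 1.64, and Hsd17b4, a peroxisomal enzyme of fatty acid oxidation, fell by 1.67 on the log2 scale. Adam33, a metalloprotease, fell by 2.08 and the acyl-CoA thioesterase gene Acot1 fell by 1.62, the latter losing its call without C57BL6J replicate 1 (adjusted p = 0.128), C57BL6J replicate 2 (0.159) or DBA2J replicate 1 (0.186). Hspa8, a constitutive chaperone with processed copies that could share its reads, was at 357 and 154 TPM and at 40.8 and 25.0 TPM (-2.83 ± 0.38, SE, limma adjusted p = 0.00134).

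Of the 16 genes with 6 or more members, 15 were tested and 1 was called by limma in the strain comparison of AM (4 at an unadjusted p under 0.05). It was Aig1, a hydrolase of fatty acid esters with 6 members, at 0.945 and 0.892 TPM in C57BL6J AM and at 5.65 and 8.62 TPM in DBA2J AM (2.06 ± 0.26, SE, limma adjusted p = 7.69e-04). Aig1 was chosen after its values were seen, since the naming rule takes 8 genes and ends within the tie at 6 members. Tcf7l2, with 17 members of 45 nearest DBA2J AM peaks, was at 55.7 and 54.3 TPM in C57BL6J AM and at 57.9 and 77.7 TPM in DBA2J AM (0.28 ± 0.28, SE, limma adjusted p = 0.883). Gsap, with 15 of 35, was at 47.3 and 38.2 TPM and at 63.5 and 81.5 TPM (0.75 ± 0.33, SE, limma adjusted p = 0.398). Prex1, with 11 of 33, was at 40.3 and 36.4 TPM and at 46.1 and 54.5 TPM (0.38 ± 0.18, SE, limma adjusted p = 0.454). In none of the 3 did the strain difference pass the test. Cd44, the hyaluronan receptor gene with 7 members, had overlapping libraries (119 and 104 against 104 and 144 TPM). Glul (glutamine synthetase), Tulp4 and Clmp, with 6 members each, did not pass, with adjusted p of 0.943, 0.0707 and 0.922 in limma. Zbtb7c, with 6 members, was under the RNA filter. Within DBA2J and with TPM as deposited, Tcf7l2 was higher in AM than in the mean of IM, iMo and pMo by 2.31 ± 0.23, Gsap by 1.11 and Glul by 2.38 on the log2 scale.

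Many of these strain differences were larger in AM than in the other cells. For each gene the strain difference in AM was set against its mean in IM, iMo and pMo in the same limma fit. This difference of differences was called higher for 91 of the 2220 genes (4.10%), against 1.95% of all genes, and lower for 27 (1.22%), against 0.847%. Of the 92 genes higher in DBA2J AM 50 were also called in that direction here and 2 in the opposite one, and of the 31 lower genes 14 were called. The contrast contains the AM strain difference by which these genes were selected, so agreement in direction is partly built in. The like share for all genes called in AM is not given here. Plekha6 had 4.54, Bcam 3.72, Gprc5b 3.48, Spp1 3.10, Map6 3.09 and Slc22a4 2.39 log2 units more of a strain difference in AM, with limma adjusted p from 4.61e-06 (Plekha6) to 0.00148 (Gprc5b). The inflammatory chemokine gene Ccl3 had 3.13 (limma adjusted p = 0.00937), being higher in DBA2J in AM (9.30 and 7.82 against 42.6 and 31.7 TPM) and lower in pMo (63.4 and 121 against 9.66 and 29.2 TPM, adjusted p = 0.0186). Ccl3 kept its direction but lost its call in AM without any 1 AM library (adjusted p 0.164 to 0.288).

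For other genes the strain difference was shared by all 4 cell types. H2-Q1, an MHC class Ib gene, was at 0.095 and 0.172 TPM in C57BL6J AM and at 27.6 and 20.5 TPM in DBA2J AM (4.45 ± 0.30, SE, limma adjusted p = 6.73e-06), and in pMo at 0.126 and 0.376 against 62.3 and 77.2 TPM. H2-Q2 and Rpl38 were likewise called higher in DBA2J in all 4 types, and for these 3 the difference of differences did not pass (adjusted p 0.23, 0.93 and 0.58). All 3 have near-identical copies elsewhere in the genome, between which reads can be split. Stab2, a scavenger receptor for hyaluronan, was at 0.047 and 0.023 TPM in C57BL6J AM and at 6.43 and 7.53 TPM in DBA2J AM, and its strain difference was larger in the other types (-1.09 for AM minus the others, limma adjusted p = 0.0128). Of genes lower in DBA2J, Adam33 passed in AM (-2.08) and IM (-3.49) and not in iMo (0.08, limma adjusted p = 0.961) or pMo (-0.42, adjusted p = 0.524). The efferocytosis receptor gene Mertk likewise passed in AM (-1.09) and IM (-2.31) and not in iMo (0.31, limma adjusted p = 0.647) or pMo (-0.42, adjusted p = 0.440). Mertk in AM lost its call without any 1 AM library (adjusted p 0.0728 to 0.348).

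**Figure D5:**
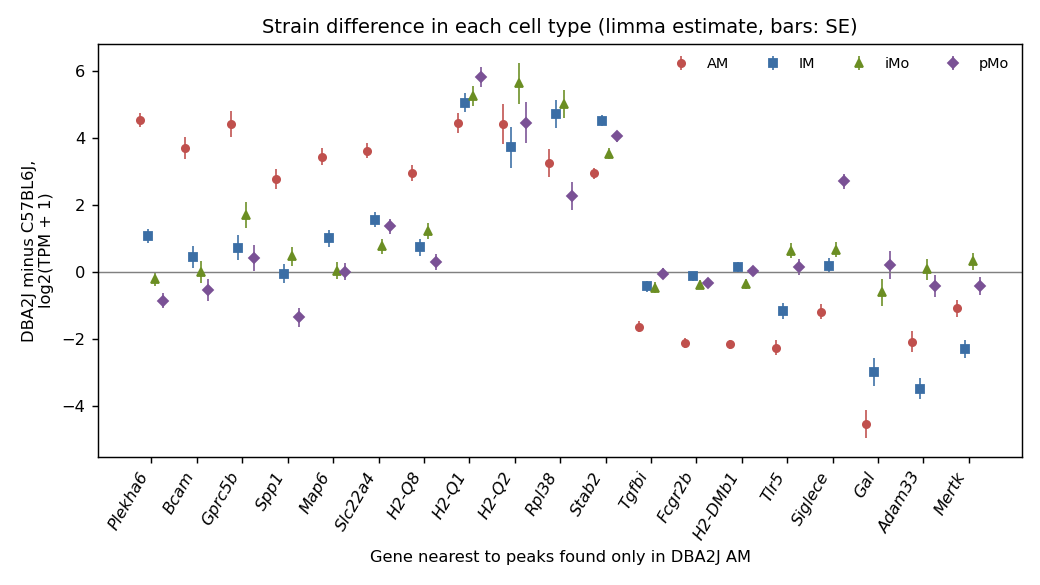
Strain difference, DBA2J minus C57BL6J in log2(TPM + 1) (y axis), in AM, IM, iMo and pMo for genes nearest to members (x axis), as limma estimates with bars of 1 SE. Plekha6, Bcam, Spp1 and Map6 differ mainly in AM, while H2-Q1, H2-Q2, Rpl38 and Stab2 differ in all 4 types.

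In the other cell types the shares called lay closer to those of all genes than the share called higher in AM did. In IM 81 of the 2220 were higher in DBA2J (3.65%), against 3.77% of all, and 185 lower (8.33%), against 6.74%. In iMo 34 were higher (1.53%), against 1.31%, and 47 lower (2.12%), against 2.16% and, for both directions together, 3.47%. In pMo 39 were higher (1.76%), against 1.36%, and 58 lower (2.61%), against 2.3% and, for both directions together, 3.66%. The shares also varied with the number of members. With 4 or more, IM had 4 of 100 genes higher and 13 lower, and iMo and pMo 3 higher and 3 lower each. With 3, IM had 7 of 141 higher and 8 lower, iMo 5 and 4, and pMo 5 and 3. These are few genes.

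The same genes were also compared between AM and the other cell types. Within DBA2J, 500 of the 2220 were higher in AM than in the mean of the other types (22.5%), against 10.9% of all genes, and 896 lower (40.4%), against 44.1%. With 4 or more members 51 of 100 were higher. Genes nearest to peaks shared by both AM lists alone had 31.7% higher. The split of higher and lower genes depends on the scaling: it was 1344 and 5420 over all genes as deposited, 3043 and 3027 after median-of-ratios scaling, 2979 and 3175 after quantile normalization and 2576 and 3145 when the 2 ribosomal entries were removed. Those entries took 64.3% to 67.6% of the TPM sum in AM. The chosen scaling thus moves the direction of many genes, and the count of nearest genes called higher was 832, 816 and 749 under these alternatives. A similar excess was seen within C57BL6J, whose AM list lacks the members. There, with TPM as deposited, 412 of the 2220 were higher in AM (18.6%), against 9.38% of all genes. Lower in C57BL6J AM were 1162 (52.3%), against 56.5%. With 4 or more members 36 of 100 were higher in C57BL6J AM.

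Of the promoter genes printed above, Egr2, a zinc finger factor of macrophage differentiation, was at 90.3 and 63.8 TPM in C57BL6J AM and at 127 and 150 TPM in DBA2J AM (0.86 ± 0.28, SE, limma adjusted p = 0.167). Within DBA2J it was 4.23 log2 units higher in AM than in the other types (limma adjusted p = 6.50e-08). The Egr2 member lay at an alternative RefSeq start, 2525 bases upstream of the start used for nearest genes. F7, coagulation factor VII, was at 342 and 299 TPM in C57BL6J AM, 415 and 401 TPM in DBA2J AM and 1.47 to 28.7 TPM in the other DBA2J libraries. Il1rl2, a receptor chain for interleukin-36, was at 11.5 and 9.34 TPM and at 14.3 and 18.5 TPM in AM. The strain difference passed for none of these 3, though DBA2J stood higher in both libraries of each. The interferon-induced gene Oas1a was low in AM of both strains (3.38 and 3.01, then 3.76 and 5.46 TPM), and the glutathione transferase gene Mgst2 was at 2.29 and 2.76 and then 3.30 and 5.13 TPM.

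Members were found near 13 of 25 AM markers, with 27 members in all, and near none of 15 IM markers. Beside these counts and those of the lists below, 3287 of all 24940 genes were nearest to a member, and 2220 of the 12277 tested. Members are peaks of an AM list by rule, so nearness to AM rather than IM markers is no separate result. As a check of the label, 24 of the 25 AM markers were higher in AM than in the other DBA2J cells and all 15 IM markers were lower. Of the 13 markers Spp1 was higher and Marco lower in DBA2J AM, and the others did not pass. Pparg, the nuclear receptor of AM identity with 2 members, was at 17.4 and 12.2 TPM in C57BL6J AM and at 12 and 20.3 TPM in DBA2J AM. Fabp1, a fatty acid binding protein with 2 members, was at 59.7 and 55.7 against 168 and 102 TPM (1.17 ± 0.31, SE, limma adjusted p = 0.0776). Lpl (lipoprotein lipase, 3 members) was at 223 and 268 against 294 and 359 TPM, and Itgax, which encodes CD11c, at 274 and 257 against 291 and 331 TPM. The libraries of Pparg overlapped, and those of the other 3 did not, without passing the test.

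Genes of lipid uptake, storage and catabolism were near members in 18 of 30 cases, with 32 members. None was called higher in DBA2J AM by limma (1 at an unadjusted p under 0.05) and 2 were lower, Marco and Dgat2. Dgat2, which makes triglyceride, was at 11.0 and 12.4 TPM in C57BL6J AM and at 3.70 and 3.62 TPM in DBA2J AM (-1.45 ± 0.23, SE, limma adjusted p = 0.00354, and 0.0544 without C57BL6J replicate 2). The median difference over the 30 genes was -0.22, beside 0.09 over all genes tested.

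Of 29 macrophage transcription factors 16 were near 28 members, 1 higher and 1 lower. Irf4 was at 1.85 and 0.794 TPM in C57BL6J AM and at 3.0 and 4.04 TPM in DBA2J AM (0.99 ± 0.23, SE, limma adjusted p = 0.0405), with a member 680 bases into the gene. Rxra, the partner of PPAR-gamma, was at 64.4 and 58.2 and at 30.5 and 34.1 TPM (-0.90 ± 0.20, SE, limma adjusted p = 0.0303). Irf4 lost its call without C57BL6J replicate 2 (adjusted p = 0.398), DBA2J replicate 1 (0.0838) or DBA2J replicate 2 (0.375), and Rxra without any 1 AM library (0.131 to 0.244).

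Of 23 inflammatory response genes 14 were near 31 members, and of the 12 tested 2 were higher and none lower in limma (6 and 0 at an unadjusted p under 0.05). These were Ccl3 and Csf1, the growth factor of macrophages, which had 5 members upstream of its start. Csf1 was low in AM, at 0.267 and 0.134 TPM in C57BL6J and 2.31 and 1.84 TPM in DBA2J (1.35 ± 0.31, SE, limma adjusted p = 0.0392, and 0.162 to 0.269 without any 1 AM library). Ccl2, with 3 members, was at 0.231 and 0.418 against 3.14 and 2.79 TPM and Il1b at 5.27 and 4.14 against 13.3 and 10.0 TPM, and neither passed (limma adjusted p = 0.157 and 0.111). The median over the 20 tested genes of the list was 0.60.

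Other lists had few called genes. Members lay near 6 of 18 genes of TGF-beta and GM-CSF signalling and near 12 of 19 genes of adhesion and migration, with none called by limma in either direction (2 of the first and 2 of the second at an unadjusted p under 0.05). Near members were 4 of 16 lysosome and phagocytosis genes, with Mertk lower, and 1 of 18 interferon-stimulated genes, Usp18, which was not called. Csf2rb2, a receptor chain of interleukin-3, had a member 725 bases into the gene and stood at 58.7 and 50.8 against 79.3 and 80.5 TPM (0.54 ± 0.15, SE, limma adjusted p = 0.099). Csf1r, the receptor of CSF1, had 2 members and a strain difference 0.68 log2 units larger in AM than in the other types (limma adjusted p = 0.0443), at 65.8 and 54.3 against 76.5 and 81.3 TPM.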

How the data were processed

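RNA levels are TPM per gene, deposited by the authors as 1 table, with levels that per the file headers refer to a length which equals the genomic span for 99.2% of genes. Sums over genes ran from 632076 to 822130, and TPM keeps no depth, so the replicate spread is the one measure of precision. Peaks are lists deposited by the authors, each from 2 libraries, with a score per peak on a scale not given in the sources used here, used only within the DBA2J AM list. Per the submitters' processing notes HOMER, Bowtie and STAR were used on build mm10, with no version or role. DBA2J reads placed on a C57BL6J reference may be lost at strain differences, and this was not tested.

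Overlap meant 1 shared base, and a gene was nearest if its start was the closest within 100 kb of the peak centre. RNA was tested on log2(TPM + 1) by limma (version 3.58.1, R 4.3.3), with 8 group means fitted to 16 libraries (8 residual degrees of freedom, eBayes with trend), for genes averaging 1 TPM or more, with Benjamini-Hochberg adjustment over all 12277 genes. The script was tested on simulated data. Python 3.11.15, numpy 2.4.6, pandas 2.3.3 and matplotlib 3.10.9 did the rest. Replicate agreement within AM was r = 0.974 in C57BL6J and 0.962 in DBA2J, across genes.

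Genes were named by rule: nearest to the 10 best-scored members, the 12 largest called strain differences in AM in each direction where the groups did not overlap and the higher one reached 5 TPM, up to 6 in each direction for the difference of differences, the 8 genes with the most members, all AM markers and up to 4 of each other list near members. Predicted genes and microRNAs were not named, and not all genes of the rule are printed, 1 of which is not reported here. Members, lists and tests were chosen with earlier results of these data known. Alternatives covered scaling, filter, pseudocount, a block for the replicate number, the variance trend, AM libraries alone, each AM library left out, and peak score, overlap and distance. Motifs were searched in promoter windows only, and sequences of distal peaks were not used here.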

Additional observations from a re-analysis of the deposited data

Results flagged for a closer look

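Only genes named by the rule above are listed here. For 26 of them the strain difference in AM differed from its mean in IM, iMo and pMo. This was a limma contrast of the difference itself, with adjusted p under 0.05 over all genes tested. Of all 2220 tested genes nearest to peaks found only in DBA2J AM, 91 were called higher and 27 lower in it. Values are log2 units of TPM + 1, AM minus the others. The difference was larger toward DBA2J in AM for Plekha6 (4.54), Bcam (3.72), Gprc5b (3.48), Ccl3 (3.13), Spp1 (3.10), Map6 (3.09), Slc22a4 (2.39) and H2-Q8 (2.22). Smaller values in the same direction were found for Fam20c (1.64), Csf1 (1.57), Glul (1.52), Tulp4 (1.51) and Csf1r (0.68). Glul, Tulp4 and Csf1r were not called in AM alone, and Glul was called lower in DBA2J in IM (-1.11), iMo (-1.55) and pMo (-1.41).

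Toward C57BL6J the values were -3.42 for Gal, -2.56 for P2ry2, -2.37 for Siglece, -2.23 for Tmem229a, -2.13 for Tlr5, -2.11 for H2-DMb1 and -1.84 for Fcgr2b. Uck2 had -1.53, Dgat2 -1.47, Siglec1 -1.41, Hsd17b4 -1.38, Tgfbi -1.32 and Stab2 -1.09. P2ry2, a nucleotide receptor gene, was alike in AM (23.0 and 23.0 TPM in C57BL6J, 28.0 and 28.0 TPM in DBA2J), while in iMo it was at 1.56 and 0.513 TPM in C57BL6J and at 25.3 and 24.8 TPM in DBA2J. Siglece, an inhibitory sialic acid receptor gene with a member before its start, was at 21.6 and 14.7 against 6.45 and 8.24 TPM in AM and at 15.6 and 14.2 against 90.8 and 116 TPM in pMo. Tmem229a, with 4 members, was at 8.07 and 6.76 against 1.97 and 6.63 TPM in AM, where the libraries came close without overlapping.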

How the results depend on the processing

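No direction reversed among the 33 named genes called for the strain difference in AM, and 20 of them kept their call in every setting that tested them. The filter of 5 TPM tested 28 of the 33, and the filter on IM, iMo and pMo tested 31. Of all genes tested, 403 were called in AM as reported (244 higher, 159 lower), 646 after median-of-ratios scaling (360, 286), 610 after quantile normalization (329, 281) and 191 to 236 with 1 AM library left out. The difference of differences gave 343 genes, and 130 to 176 with a library left out. AM against the other DBA2J types gave 6764, and 4197 to 6376 with a library left out, the lowest without DBA2J replicate 1. Nearest genes called higher in DBA2J AM numbered 92 of 2220 (4.14%, against 1.99% of all genes). They were 61 of 1629 with a filter of 5 TPM (3.74%, against 2.13%), 142 after median-of-ratios scaling (6.40%, against 2.93%), 27 of 312 for members above the list's median score (8.65%, against 1.99%) and 39 to 61 with a library left out (1.76% to 2.75%, against 0.896% to 1.24%). Those called lower numbered 31 (1.40%, against 1.30% of all), and 56 after median-of-ratios scaling (2.52%, against 2.33%), 49 after quantile normalization (2.21%, against 2.29%), 6 of 312 for members above the median score (1.92%, against 1.30%) and 14 to 16 with a library left out (0.631% to 0.721%, against 0.586% to 0.684%). Those higher in AM than in the other DBA2J types numbered 500 (22.5%, against 10.9% of all), and 832 after median-of-ratios scaling (37.5%, against 24.8%), 816 after quantile normalization (36.8%, against 24.3%) and 94 of 312 for members above the median score (30.1%, against 10.9%). The cause of these moves was not tested, beyond the fewer genes, peaks or libraries that a setting leaves.

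The member count of 5372 was 609 above the list's median score, 7321 without the C57BL6J IM list and 4412 when no other peak lay within 500 bases. Median-of-ratios scaling moved the median AM difference of all genes from 0.09 to 0. Replicate numbers did not pair samples (28 pairs of groups, median correlation 0.0176, 5 over 0.1). With the replicate number as a block, 378 genes were called in AM, 91 nearest genes higher and 30 lower. A lone library was assumed to vary like the other groups.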
